A study of Mus musculus with 3 samples.

Results

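The cells described here are the mitotic (G2/M) progenitor cells of mouse colon organoids, 737 of 4909 filtered cells. They were taken by a score, not by a cluster. Filtered cells had at least 5000 UMIs (unique molecular identifiers, each counting 1 captured mRNA molecule), at least 400 genes and at most 15% of UMIs from mitochondrial genes. The score was the mean of ln(1 + UMIs per 10000) over Ube2c, Plk1, Nusap1, Aurka, Ccnb1, Tpx2, Prc1 and Cenpf, and the top 15% of cells by score in each library were the members, which were thus chosen by the measured levels of these 8 genes. This gave 159 members of 1058 cells in the untreated library, 138 of 917 after 24 h of IFN-γ and 440 of 2934 after 48 h. The 8 score genes chose the members, so their levels are not a result, and their share of cells is fixed by the rule. Every gene in the cells that were scored can follow the score, so the differences between members and other cells are given as a description with no test.

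The study used sc-RNAseq to ask how IFN-γ acts on differentiation in the colon epithelium. Organoids derived from WT mice were grown in full medium (FM), and were left untreated or given 50 ng/ml of mouse IFN-γ for 24 h or 48 h. Live cells were sorted by exclusion of DAPI and run as 1 poly(A)-primed library per condition, so no comparison between conditions has a replicate and no p-value is given. The labels give neither the strain nor the age of the mice. The study's methods name C57bl/6 among the strains that gave organoids, without tying it to these libraries, and give an age of 6 to 12 weeks and both sexes for the mice of the study as a whole.

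Between the end of DNA synthesis and cell separation, a dividing cell passes through G2 and mitosis. Cyclin-dependent kinase 1 with B-type cyclins drives entry, kinesins and kinetochores place the chromosomes on the spindle, the spindle checkpoint holds the cell until every kinetochore is attached, and the anaphase-promoting complex then marks cyclins and securin for destruction. In the colon, such divisions occur in the stem and transit-amplifying cells of the lower crypt and cease as cells become colonocytes, goblet cells or enteroendocrine cells. IFN-γ acts through a receptor and JAK kinases to switch on interferon regulatory factors, antigen presentation and guanosine triphosphatases that defend against pathogens inside cells.

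The score ran across the boundary without a break, so the members are a range of the score and not a separate type. In bins of 0.05, every bin held cells up to a score of 1.7 untreated, 1.6 at 24 h and 1.55 at 48 h, and single members lay apart above these values in the untreated and 24 h libraries. The lowest score inside and the highest outside were 1.141 and 1.139 in the untreated library, 1.216 and 1.215 at 24 h, and 0.9933 and 0.9931 at 48 h. Within 0.1 of the boundary there were 47 members and 43 other cells untreated, 56 and 60 at 24 h, and 155 and 193 at 48 h. All 8 score genes were detected in 146 of 159 untreated members, 133 of 138 at 24 h and 309 of 440 at 48 h. Other filtered cells also held them, since all 8 were found in 188, 340 and 185 of the others in the same order.

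**Figure D1:**
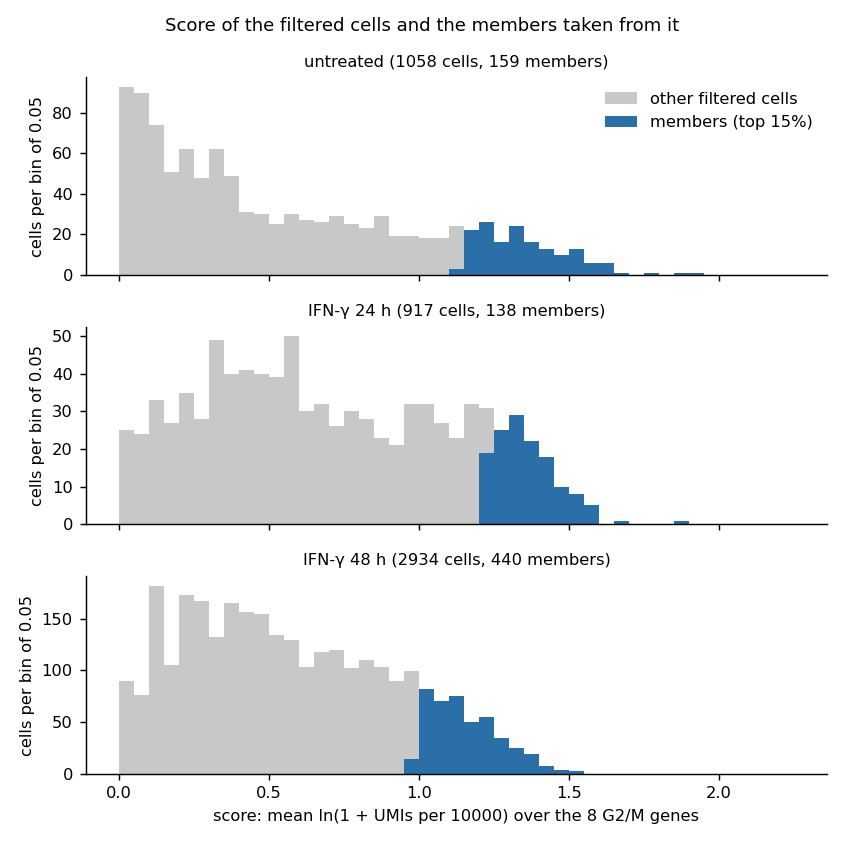
Histograms of the G2/M score (mean ln(1 + UMIs per 10000) over 8 genes) in the filtered cells of each library, in bins of 0.05, with the number of cells on the vertical axis; blue bars are members and grey bars are the other cells. The members form the upper end of the distribution in all 3 libraries, with 159, 138 and 440 cells and no empty bin at the boundary.

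Members held more UMIs than the other cells of their library. The median was 65967 UMIs in members against 29630 in other cells untreated, 96990 against 63538 at 24 h, and 23386 against 9814 at 48 h. The mitochondrial share was lower in members, with medians of 3.48% against 5.26%, 1.83% against 2.23% and 3.17% against 6.60% in that order. Summed over cells, members contributed 11506556, 13262829 and 10473226 UMIs. These totals carry the values in CPM (a gene's UMIs divided by all UMIs of the pooled cells, scaled so that the total is 1000000) below, in which large cells weigh more than small ones. Of the filtered cell barcodes, 1 was shared by the untreated and 24 h libraries, 4 by the untreated and 48 h libraries and 1 by the 24 h and 48 h libraries. No doublet caller was run, and the part of cell pairs or of depth in any result was not tested beyond the alternatives given in the closing section.

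Genes of mitosis outside the score were higher in the members in every library. Over 6 lists with 103 genes in all, the median log2 ratio of members to other cells was 1.24, 0.72 and 0.69 in the untreated, 24 h and 48 h libraries, beside medians of -0.02, 0.02 and -0.06 over all genes. Their summed level was 18012 against 8286 CPM untreated, 16277 against 10706 at 24 h and 14073 against 8948 at 48 h. At least 2-fold higher were 69 of 103 genes untreated, 20 of 103 at 24 h and 15 of 102 at 48 h. Among all genes outside the score that reached a mean of 10 CPM, 1.44%, 0.43% and 0.281% were as much higher and 1.2%, 0.307% and 0.399% as much lower in the same order. With TMM scaling the 48 h library had 35 genes higher and 20 lower in place of 24 and 34. Thinning every cell to 5000 UMIs before scoring gave 71 higher and 257 lower at 24 h in place of 35 and 25, and 269 lower untreated in place of 106. These counts follow from the choice of members. Of all 7866 genes measured in the 3 libraries, 1998 were higher in members in each library and 2058 lower in each. On the mitotic lists, 94 of the 103 genes were higher in all 3 libraries. Only Mybl2, a transcription factor of the S to G2 switch, and Ncapg2, a condensin II subunit, were lower in all 3. Barcodes with fewer than 2000 UMIs carried the same lists at 9899, 10041 and 8973 CPM. Whether these small barcodes were empty droplets with free RNA or small cells was not tested, nor was the part of free RNA in the cells' values.

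Among genes that averaged 50 CPM or more over the arms, the 10 whose lowest ratio over the 3 libraries was highest were Cenpe, Ckap2l, Aspm, Hmmr, Cdc20, Aurkb, Bub1b, Kif20b, Arl6ip1 and Cdk1. Cenpe, the kinesin that carries chromosomes to the spindle equator, stood at 335 against 92.2 CPM untreated, 299.7 against 119 at 24 h and 272 against 114 at 48 h. Its log2 ratios were 1.86 (1.80 to 1.93), 1.33 (1.28 to 1.39) and 1.25 (1.18 to 1.32), with 95% intervals that cover counting error only, here and below. Ckap2l, a spindle protein, stood at 102 against 27.5 CPM untreated, 85.4 against 37.3 at 24 h and 67.7 against 30.9 at 48 h, with log2 ratios of 1.90 (1.78 to 2.02), 1.20 (1.09 to 1.30) and 1.13 (0.99 to 1.27). In both genes the members were more than 2-fold above the other cells of each library, and the gap was widest in the untreated library. Aspm, which focuses microtubules at the spindle poles, stood at 95.6 against 25.2 CPM untreated, 72.6 against 24.4 at 24 h and 62.2 against 28.6 at 48 h. Hmmr, a spindle and hyaluronan-binding protein, stood at 277 against 77.7 CPM untreated, 258 against 121 at 24 h and 209 against 102 at 48 h. Across all 7866 genes measured in the 3 libraries, 17 were at least 2-fold higher in members in each of them, or 0.216%, and 10 of these 17 are on the mitotic lists. The others were Aspm, Fam83d, Arhgef39, Pif1, Pimreg, Troap and Arhgap19, of which all but Aspm are named here after their values were seen. Pif1, a DNA helicase, had log2 ratios of 2.36, 1.31 and 1.19, and Fam83d, which brings casein kinase to the spindle, had 1.97, 1.21 and 1.09.

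**Figure D2:**
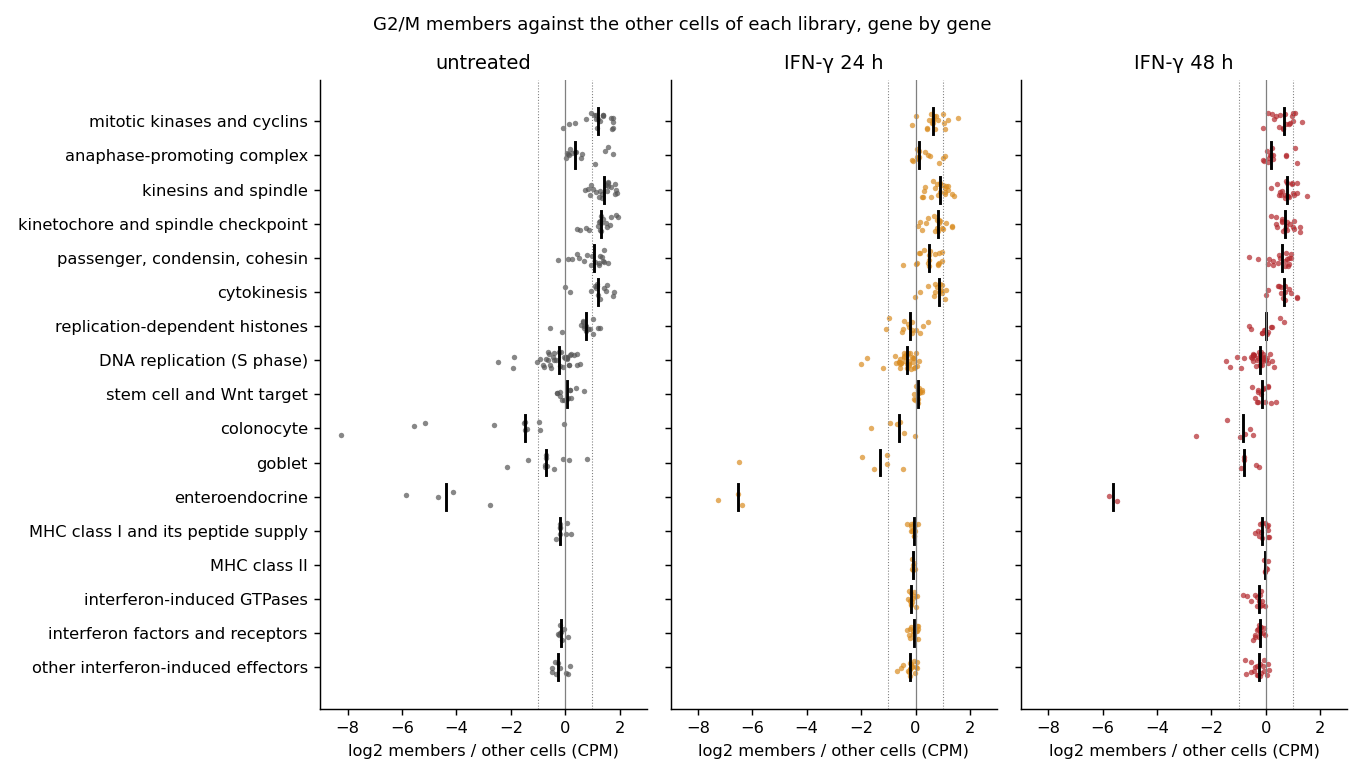
Log2 ratio of CPM in members to CPM in the other cells for each gene of 17 lists (points), with the list median (black bar), in the untreated, 24 h and 48 h libraries; dotted lines mark 2-fold. The medians of the mitotic lists lie to the right of 0, with a joint median of 1.24, 0.72 and 0.69, those of the colonocyte, goblet and enteroendocrine lists lie to the left, and those of the interferon lists lie close to 0.

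Among the mitotic kinases and cyclins, 14 of 19 genes untreated, 4 of 19 at 24 h and 2 of 18 at 48 h were at least 2-fold higher in members, beside 1.44%, 0.43% and 0.281% of all genes. Cdk1 stood at 208 against 65.3 CPM untreated, 182 against 88.8 at 24 h and 106 against 54.4 at 48 h, with log2 ratios of 1.67 (1.59 to 1.75), 1.04 (0.97 to 1.11) and 0.95 (0.85 to 1.06). Ccna2, the cyclin of S phase and G2, stood at 176 against 67.8 CPM untreated, 170.4 against 109 at 24 h and 120.1 against 64.6 at 48 h. Ccnb2, another B-type cyclin, stood at 156 against 68.4 CPM untreated, 104 against 74.3 at 24 h and 76.4 against 52.7 at 48 h. The ratio of Ccnb2 was smaller than that of Cdk1 in each library. Cdc25b, the phosphatase that starts Cdk1 activation, had log2 ratios of 1.74, 1.55 and 1.32, and its relative Cdc25c had 1.77, 0.81 and 0.99. Wee1 and Pkmyt1, the kinases that hold Cdk1 inactive, had 0.36, 0.59 and 0.29 and 0.13, 0.03 and 0.09, below the 2-fold line in all 3 libraries. Foxm1, a transcription factor of G2 genes, had 0.96, 0.65 and 0.71.

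The anaphase-promoting complex gave smaller ratios than the other mitotic lists. Its activators were Cdc20 at 188 against 55.6 CPM untreated, 189.6 against 95 at 24 h and 152 against 68.9 at 48 h and Fzr1 at 63.4 against 21.4 CPM untreated, 57.9 against 27.4 at 24 h and 62.1 against 29.2 at 48 h. Ube2s, the enzyme that lengthens its ubiquitin chains, stood at 630.1 against 297 CPM untreated, 787 against 551 at 24 h and 584 against 353 at 48 h. The 8 core subunits on the list had log2 ratios of members to others from 0.05 for Anapc4 to 0.63 for Cdc23 untreated, from 0.05 for Cdc26 to 0.45 for Cdc27 at 24 h and from -0.10 for Anapc4 to 0.26 for Cdc27 at 48 h. All 8 thus lay below the 2-fold line in each library. Pttg1, the securin that the complex destroys at anaphase, had 0.02, -0.12 and 0.06, while Espl1, the separase that securin restrains, had 1.45, 0.87 and 0.75. Fbxo5, an inhibitor of the complex in S phase and G2, had 0.36, -0.08 and 0.22. The list median was 0.37, 0.13 and 0.20, the lowest of the 6 mitotic lists in each library.

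Kinetochore and checkpoint genes were higher in members without exception, 18 of 18 in all 3 libraries, beside 1998 of all 7866 genes. The list medians were 1.31, 0.82 and 0.72. Sgo2a, a protector of cohesin at centromeres, stood at 83.7 against 21.7 CPM untreated, 63.8 against 25.2 at 24 h and 51.5 against 21.5 at 48 h, a log2 ratio of 1.95, 1.34 and 1.26. Bub1b, the checkpoint kinase BubR1, stood at 99.3 against 34.5 CPM untreated, 83.1 against 38.1 at 24 h and 65.4 against 33.0 at 48 h. Cenpa, the histone variant that marks centromeres, had log2 ratios of 1.67, 0.81 and 1.04, and Mad2l1, a checkpoint protein, 0.76, 0.37 and 0.38. Among the small ratios of the list were those of Zwilch at 0.43, 0.26 and 0.17 and Cenpw at 0.52, 0.07 and 0.37. Kinesin and spindle genes were also higher in all 3 libraries, 20 of 20, beside the same 1998 of 7866 genes, with medians of 1.42, 0.90 and 0.79. Kif2c, which shortens microtubules at kinetochores, stood at 56.8 against 15.8 CPM untreated, 54.6 against 21.5 at 24 h and 48.7 against 17.2 at 48 h. Kpna2, an importin, stood at 104 against 28.7 CPM untreated, 73.8 against 27.6 at 24 h and 43.8 against 19.6 at 48 h. The tubulins of the list were abundant, and their ratios were smaller, with 0.94, 0.26 and 0.59 for Tubb4b and 0.91, 0.24 and 0.56 for Tuba1b.

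In the list of the chromosomal passenger complex, condensin and cohesin, 10 of 18 genes untreated, 0 of 18 at 24 h and 0 of 18 at 48 h were at least 2-fold higher in members, beside the same shares of all genes, 1.44%, 0.43% and 0.281%. Top2a, the topoisomerase that untangles sister chromatids, stood at 1262 against 425 CPM untreated, 1116 against 566 at 24 h and 1059 against 562 at 48 h. Mki67, which coats mitotic chromosomes, stood at 848 against 319 CPM untreated, 560.3 against 309.7 at 24 h and 525 against 314 at 48 h. Thinned to 5000 UMIs per cell, 98.7% (95.5% to 99.8%) of untreated members and 61.0% (57.7% to 64.2%) of the others held an Mki67 UMI, against 100% and 80.1% before thinning. The small barcodes held 128, 108 and 109 CPM of Mki67 in the order of the libraries. The part of free RNA in these shares was not tested. Of condensin I, Ncapg, Ncaph and Ncapd2 had log2 ratios of 1.26, 0.71 and 0.83, of 1.24, 0.99 and 0.77 and of 1.0, 0.45 and 0.45. Of condensin II, Ncapg2, Ncapd3 and Ncaph2 had -0.26, -0.46 and -0.62, 0.08, 0.02 and -0.27 and 0.43, 0.16 and 0.08. Smc2 and Smc4, which both complexes share, had 0.95, 0.50 and 0.52 and 1.24, 0.81 and 0.71. Of cohesin, Rad21 had 0.80, 0.49 and 0.49 and Smc3 0.27, 0.12 and 0.13. In cytokinesis, Kif20a, a kinesin of the central spindle, stood at 55.6 against 16 CPM untreated, 53.8 against 24.6 at 24 h and 43.5 against 19.7 at 48 h. Racgap1, part of centralspindlin, stood at 153 against 52.4 CPM untreated, 112 against 59.6 at 24 h and 101 against 55.2 at 48 h, while Rhoa, the small GTPase that they localise and that many cells use, had 0.01, -0.01 and 0.01.

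Promoters of G2/M genes are known for a cell cycle homology region, TTTGAA, read by a repressor complex outside G2, and for CCAAT boxes read by NF-Y. Since the mitotic genes stood high together, these letters were sought on both strands in RefSeq windows of 300 bases (GRCm38.p6, 250 before and 50 after the start). TTTGAA was found in 48 of the 85 mitotic-list genes with a window (56.5%), against 5466 of all 27025 genes (20.2%), 4 of 28 S-phase genes (14.3%) and 7 of 50 interferon genes (14%). CCAAT was found in 53 of the 85 (62.4%), 11096 of all genes (41.1%), 17 of the 28 S-phase genes (60.7%) and 25 of the 50 interferon genes (50%), so alone it was nearly as frequent in the S-phase windows as in the mitotic ones. Both occurred together in 37 of the 85 (43.5%), 2155 of all genes (7.97%), 3 of the 28 S-phase genes (10.7%) and 2 of the 50 interferon genes (4%). The following 3 windows belong to the named genes, in order of rank, with both motifs in the 250 bases before the start, and the capitals mark TTTGAA and CCAAT in either orientation, which nowhere share a base here. They are written 5′ to 3′ on the strand of the gene, which is minus for all 3. Ckap2l lies upstream at chr2:129297213-129297462, Cdc20 at chr4:118437344-118437593 and Cdk1 at chr10:69352913-69353162. A match is a description of letters and not of a bound site.
Ckap2l: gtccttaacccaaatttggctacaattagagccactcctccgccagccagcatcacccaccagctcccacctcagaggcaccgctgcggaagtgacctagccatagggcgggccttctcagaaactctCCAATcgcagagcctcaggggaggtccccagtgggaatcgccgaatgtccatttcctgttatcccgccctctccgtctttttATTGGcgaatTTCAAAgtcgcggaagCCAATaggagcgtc
Cdc20: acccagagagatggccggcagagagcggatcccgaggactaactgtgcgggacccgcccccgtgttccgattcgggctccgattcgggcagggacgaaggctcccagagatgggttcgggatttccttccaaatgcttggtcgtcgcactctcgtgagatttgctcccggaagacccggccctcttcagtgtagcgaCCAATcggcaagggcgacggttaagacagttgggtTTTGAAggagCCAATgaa
Cdk1: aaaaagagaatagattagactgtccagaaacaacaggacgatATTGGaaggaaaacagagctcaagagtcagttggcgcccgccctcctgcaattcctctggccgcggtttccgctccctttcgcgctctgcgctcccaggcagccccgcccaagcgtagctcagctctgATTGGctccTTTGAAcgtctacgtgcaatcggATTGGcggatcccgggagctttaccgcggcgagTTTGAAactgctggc
These letters lie within a short distance of the start in all 3, and the nearest TTTGAA began 30 bases before it in Ckap2l, 18 in Cdc20 and 15 in Cdk1.

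S-phase genes were mostly lower in the members. The list of 35 replication genes had medians of -0.23, -0.33 and -0.23. Of the 35, 23 were lower in members in all 3 libraries and 3 were higher in all 3, beside 2058 and 1998 of all 7866 genes. The 3 genes of the list at least 2-fold lower in each library were Ccne2, Ccne1 and Ung. Ccne2, a cyclin that opens S phase, stood at 7.47 against 41.0 CPM untreated, 5.43 against 22.1 at 24 h and 8.59 against 21.3 at 48 h, with log2 ratios of -2.46 (-2.79 to -2.14), -2.02 (-2.39 to -1.68) and -1.31 (-1.64 to -0.99). Ccne1, another E-type cyclin, stood at 8.26 against 30.2 CPM untreated, 13.1 against 30.1 at 24 h and 10.3 against 21.5 at 48 h. Ung, a uracil-removing repair enzyme, stood at 7.56 against 28.6 CPM untreated, 8.82 against 30.1 at 24 h and 9.26 against 25.4 at 48 h. Cdc6, which loads the replicative helicase, had log2 ratios of -1.06, -0.76 and -0.80, and the helicase subunits Mcm3 and Mcm4 had -0.54, -0.61 and -0.34 and -0.58, -0.54 and -0.47. By contrast Rrm1 and Tk1, which supply deoxynucleotides, had 0.45, 0.12 and 0.22 and 0.53, 0.06 and 0.29. Only 9 of the 7866 genes (0.114%) were at least 2-fold lower in members in all 3 libraries, and Ccne1, Ccne2 and Ung were among them.

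Ranked by score, the S-phase list was highest in the middle of the rank and not in the members. Its summed level in the untreated library was 2285 CPM in the top 15%, 2872 from 15% to 30%, 3319 from 30% to 50%, 3289 from 50% to 75% and 945 from 75% to 100%. At 24 h and 48 h the highest values were 3344 and 2857 CPM, in the cells from 50% to 75%, and the members held 2233 and 2038. The mitotic lists were lower in each later bin of the rank in each library, from 18012 to 3154 CPM untreated, from 16277 to 6342 at 24 h and from 14073 to 5365 at 48 h. The cells of lowest score still held RNA of these lists, with higher values in the treated libraries. Cells next to the boundary lay close to each other, with 16635 CPM in the last 5% of cells inside and 14698 in the first 5% outside untreated, 15497 and 14600.5 at 24 h, and 13154 and 12586 at 48 h.

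**Figure D3:**
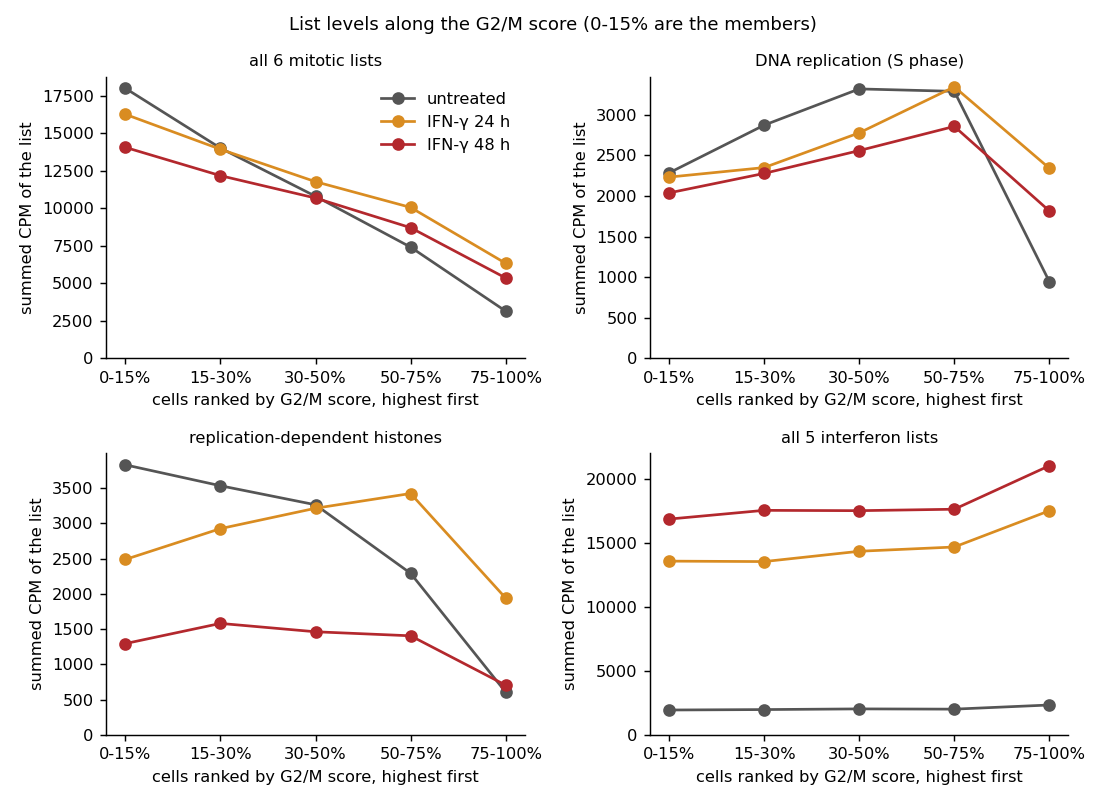
Summed CPM of 4 gene lists (vertical axes) in cells ranked by G2/M score, highest first, in 5 rank bins; points are pooled cells of the untreated, 24 h and 48 h libraries. The mitotic lists run down the rank from 18012, 16277 and 14073 CPM in the members, the S-phase list peaks in the middle, and the interferon lists have their highest value in the lowest bin.

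Replication-dependent histone genes, whose transcripts accumulate in S phase and mostly lack a poly(A) tail, so that poly(A) capture records only a part, stood apart from the S-phase list. In the untreated library the members were higher, with a list median of 0.75 and a summed level of 3832 against 2267 CPM. At 24 h the median was -0.19, with 2489 against 2936 CPM, and at 48 h it was 0.01, with 1295 against 1258 CPM. Hist1h4d stood at 625 against 259 CPM untreated, 437 against 320.0 at 24 h and 188 against 119 at 48 h. Hist1h1b, a linker histone, stood at 1395 against 862 CPM untreated, 798 against 1126 at 24 h and 537 against 588 at 48 h. In the first the members stayed above the others in each library, and in the second the order was turned in both treated libraries. Within the members the spread was wide, from 4.38 UMIs per 10000 at the 10th to 76.6 at the 90th percentile of untreated members, with a median of 24.1. Clustered histone genes are near copies, and reads that fit several of them could have been lost or assigned unevenly.

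Of 14 CDK inhibitors and G1 regulators, Cdkn2d, Cdkn1b and Cdkn3 were higher in members in all 3 libraries, among those with a mean of 10 CPM. Another 3 were lower in all 3, beside 1998 higher and 2058 lower among all 7866 genes, shares close to those of the list. Cdkn2d, which encodes p19, an inhibitor of the G1 kinases, stood at 39.6 against 14 CPM untreated, 36.2 against 18.0 at 24 h and 17.9 against 8.95 at 48 h, with log2 ratios of 1.5 (1.32 to 1.69), 1.01 (0.85 to 1.17) and 1.0 (0.73 to 1.26). Cdkn1b, which encodes p27, stood at 67.3 against 49.4 CPM untreated, 39.1 against 28.8 at 24 h and 26.7 against 20.1 at 48 h. Cdkn2c, which encodes p18, had log2 ratios of 0.76, 0.36 and 0.37, below that mean in the treated libraries. Cdkn3, a phosphatase acting on CDKs, had 1.35, 0.56 and 0.80. Cdkn1a, which encodes p21, stood at 146 against 171 CPM untreated, 168 against 240.1 at 24 h and 158 against 164 at 48 h, lower in members by log2 values of -0.23, -0.52 and -0.06. After thinning, 29.6% (22.6% to 37.3%) of untreated members, 39.1% (30.9% to 47.8%) at 24 h and 38.6% (34.1% to 43.4%) at 48 h held a Cdkn1a UMI. The other cells stood at 31.9% (28.9% to 35.1%), 41.8% (38.4% to 45.4%) and 36.3% (34.4% to 38.2%). These intervals overlapped those of the members in each library, so the shares do not order members and others. Before thinning the shares were 66.7%, 85.5% and 66.6% of members and 64.3%, 78.0% and 55.0% of the others, at different depths. The part of free RNA in these shares was not tested. Of 12 p53 targets, Btg2, an antiproliferative gene, had log2 ratios of members to others of -0.73, -0.65 and -0.72, and Bax, which promotes apoptosis, had 0.12, 0.01 and 0.20.

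The members carried the epithelial genes of the labelled cell type, with list medians of -0.27, -0.18 and -0.17 against the other cells. Epcam, a surface marker of epithelium, stood at 1414 against 1441 CPM untreated, 1572 against 1439 at 24 h and 1108 against 1205 at 48 h. Immune and stromal cells had almost no trace in the members. Ptprc and Cd3e, which define leukocytes, and Col1a1, Col3a1, Dcn and Pdgfra, which define fibroblasts, had 0 UMIs in the members of all 3 libraries, and the most abundant gene of the immune list there was Itgam at 0.782 CPM untreated and Cd52 at 0.302 and 0.382 CPM in the treated libraries. Acta2, a smooth muscle actin on the stromal list, stood at 0.174 against 1.04 CPM untreated, 11.1 against 10.8 at 24 h and 17.7 against 16.9 at 48 h, with the collagens at or near 0. The tuft cell list was similarly low, with Pou2f3, its defining factor, at 1.30 CPM untreated, 3.69 at 24 h and 3.72 at 48 h in members.

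Stem cell genes did not separate the members from the rest. The list median was 0.06, 0.10 and -0.14, with 0 genes past 2-fold in any library. Among all genes, 1.44%, 0.43% and 0.281% were at least 2-fold higher and 1.2%, 0.307% and 0.399% lower, so a count of 0 does not set this list apart. Lgr5, the receptor that marks crypt base stem cells, stood at 142 against 154 CPM untreated, 53.5 against 55.6 at 24 h and 85.0 against 91.2 at 48 h. Thinned to 5000 UMIs, 38.4% (30.8% to 46.4%) of untreated members and 37.0% (33.9% to 40.3%) of the others held an Lgr5 UMI. At 24 h these shares were 15.9% (10.3% to 23.1%) and 18.6% (15.9% to 21.5%), and at 48 h 31.4% (27.1% to 35.9%) and 30.2% (28.4% to 32.1%). The small barcodes held 30.4, 9.88 and 11.0 CPM of Lgr5 in the order of the libraries. Unthinned shares were 71.1% and 54.7% untreated, 52.9% and 51.3% at 24 h, and 55.7% and 44.6% at 48 h. Ascl2, a stem cell transcription factor, had log2 ratios of 0.68, 0.15 and 0.38, and Axin2, a Wnt target, 0.41, 0.22 and 0.08. Id2 and Id3, which block differentiation factors, stood higher in members in all 3 libraries, Id2 at 102 against 66.8 CPM untreated, 93.8 against 69.1 at 24 h and 71.6 against 42.7 at 48 h and Id3 with log2 ratios of 0.25, 0.36 and 0.42. Over all settings, the median of the BMP pathway list ran from -0.34 to -0.04 untreated. It ran from -0.07 to 0.30 at 24 h and from -0.05 to 0.19 at 48 h, so the list as a whole was not higher in members throughout. The growth factor receptors Igf1r and Egfr were lower, with -0.51, -0.51 and -0.64 and -0.35, -0.51 and -0.65.

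The lists of differentiated lineages had negative median log2 ratios of members to other cells, although single genes lay on the other side. Krt20, a keratin of mature colonocytes, stood at 0.782 against 27.9 CPM untreated, 10.1 against 31.6 at 24 h and 5.35 against 32.0 at 48 h. A Krt20 UMI was found in 4.40% of untreated members and 10.6% of the others, in 14.5% and 13.7% at 24 h and in 3.86% and 6.05% at 48 h. Thinned to 5000 UMIs, 0 of the 159 untreated members and 6.12% (4.64% to 7.89%) of the others held it. At that depth the upper bound for untreated members is 2.29%, which limits cells with a UMI after thinning and not cells that express the gene. The thinned shares were 4.35% (1.61% to 9.22%) and 6.29% (4.69% to 8.23%) at 24 h, with overlapping intervals. At 48 h they were 2.27% (1.10% to 4.14%) and 4.09% (3.35% to 4.94%). The part of free RNA in these shares was not tested. Aqp8, a water channel, stood at 1.13 against 53.6 CPM untreated, 0.0754 against 3.04 at 24 h and 0 against 2.28 at 48 h. Without the 3 highest cells of each arm, these were 0.711 against 37.0, 0 against 0.191 and 0 against 0.790 CPM. Car1, a carbonic anhydrase, stood at 404 against 1161 CPM untreated, 57.7 against 109.8 at 24 h and 24.5 against 65.5 at 48 h. The colonocyte list had medians of -1.49, -0.62 and -0.85 over 11, 6 and 6 genes with enough reads. Summed, it stood at 1235 against 3145 CPM untreated, 791 against 1143 at 24 h and 624 against 1027 at 48 h. Its values per cell were closer, with medians of 6.18 and 6.82 UMIs per 10000 in untreated members and others, while the 90th percentiles were 31.1 and 57.9. The medians were 6.43 and 6.47 at 24 h and 4.79 and 4.70 at 48 h, where that of the members was the higher. The 90th percentiles were 13.5 and 17.2 at 24 h and 11.0 and 14.6 at 48 h. The division thus lay in the cells with the highest values.

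The enteroendocrine list had medians of -4.39, -6.53 and -5.62, over only 4, 3 and 2 genes, lower than those of the colonocyte and goblet lists, although single colonocyte genes had wider gaps in the untreated library. Chgb and Chga reached the required mean of 10 CPM only through the other cells, so in this list their ratios could only be negative. Neurog3, given below, fell under that mean and is not in the medians. The colonocyte and goblet lists were filtered by the same rule. The untreated median was -0.23 over 2 genes in cells matched to the 10th to 90th percentile of the members' UMIs, a setting chosen after seeing the data, and the 48 h median was -2.05 after thinning before scoring and -3.05 in the top 20% by score. Chgb, a granin stored in hormone granules, stood at 5.82 against 149 CPM untreated, 0.980 against 90.7 at 24 h and 1.43 against 63.3 at 48 h, with log2 ratios of -4.67 (-5.04 to -4.33), -6.53 (-7.44 to -5.76) and -5.47 (-6.31 to -4.74). Its 48 h ratio was -2.27 after thinning before scoring and -3.44 in the top 20%, while the untreated ratio stayed at -4.16 or lower under all settings tried. Chga, its relative, stood at 0.435 against 25.2 CPM untreated, 0.452 against 37.7 at 24 h and 0.477 against 26.1 at 48 h. Few cells carried the level of the others, since 3 cells held 53.9%, 76.7% and 66.2% of their Chgb UMIs in the order of the libraries. Without these 3 cells the others stood at 68.9, 21.2 and 21.5 CPM for Chgb, and without the 3 highest for Chga at 15.5, 8.76 and 10.8 CPM, still above the members. Thinned, 6.29% (3.06% to 11.3%) of untreated members and 8.57% (6.82% to 10.6%) of the others held a Chgb UMI, close to each other although the CPM differed widely. At 24 h 0 of 138 members and 3.08% (1.98% to 4.55%) of the others held one. At 48 h the shares were 1.14% (0.370% to 2.63%) and 1.68% (1.22% to 2.27%). The small barcodes held Chgb at 199 CPM untreated, 76.3 at 24 h and 13.6 at 48 h. The part of free RNA in the members' Chgb was not tested. Neurog3, the factor that opens the endocrine fate, went the other way in the untreated library, at 16.8 against 1.80 CPM untreated, 0.0754 against 1.95 at 24 h and 1.05 against 2.20 at 48 h. In untreated members 9 of 159 cells held it, and 88.1% of its 193 UMIs lay in 3 cells, without which the level was 2.02 CPM.

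The goblet list had medians of -0.70, -1.30 and -0.81 over 11, 6 and 5 genes, of which 9, 6 and 5 were lower in members. The untreated median moved with the cells taken, to -2.76 in the top 10% by score, -0.27 in the top 20% and -1.56 after thinning before scoring, and the 48 h median was -0.35 after thinning. Agr2, a chaperone of mucin folding, stood at 1031 against 1732 CPM untreated, 278 against 581 at 24 h and 323 against 384 at 48 h. Without the 3 highest cells of each arm, these were 498 against 1556, 168 against 486 and 261 against 359 CPM. Tff3, a trefoil peptide, stood at 418 against 701 CPM untreated, 243 against 333 at 24 h and 206 against 262 at 48 h. Without the 3 highest cells of each arm, Tff3 stood at 240 against 636, 126 against 280 and 166 against 244 CPM. Muc2, the main gel-forming mucin, stood at 197 against 207 CPM untreated, 12.7 against 37.2 at 24 h and 13.1 against 23.0 at 48 h. The genes higher in untreated members were Atoh1 and Ccl6. Atoh1, the transcription factor that opens secretory fate, stood at 17.5 against 16.1 CPM untreated, 7.01 against 5.43 at 24 h and 8.40 against 3.78 at 48 h, below a mean of 10 CPM in the treated libraries, with log2 ratios of 0.12 (-0.12 to 0.35), 0.37 (0.02 to 0.71) and 1.15 (0.75 to 1.55). Ccl6, a chemokine, had log2 ratios of 0.80, -1.88 and -1.85, below a mean of 10 CPM in the treated libraries, and 1 cell held 118 of its 156 UMIs in untreated members. In untreated members the level of Muc2 came largely from 1 cell, which held 1307 of its 2266 UMIs and 237724 UMIs in all, more than 98.1% of members. The same cell held 1917 of 2138 UMIs of Lyz1, a lysozyme, 1770 of 2203 of Reg4, a secreted lectin, and 2276 of 3525 of Spink4, a goblet peptide, and it ranked 114 of 159 by score. Whether it was a single cell or a pair was not tested. Without the 3 highest cells of each gene, the untreated members stood at 44.2 CPM for Muc2, 3.16 for Lyz1, 8.30 for Reg4 and 52.5 for Spink4.

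The 10 named genes lowest in members over the 3 libraries were Chgb, Cyp2c55, Lor, Edn1, Car1, Abcb1a, AA467197, Nupr1, Clec2h and Neat1. Edn1, which encodes endothelin 1, stood at 53.9 against 198 CPM untreated, 7.92 against 16.2 at 24 h and 19.4 against 38.8 at 48 h. Lor, an envelope protein known from cornified skin, stood at 60.3 against 152 CPM untreated, 23.4 against 58.6 at 24 h and 12.2 against 27.5 at 48 h. Cyp2c55, a cytochrome P450, stood at 157 against 442 CPM untreated, 0.603 against 6.19 at 24 h and 0.0955 against 4.32 at 48 h, so its treated values rest on few counts. Nupr1, a stress-response factor, stood at 135 against 318 CPM untreated, 119.6 against 225 at 24 h and 157 against 263 at 48 h. Neat1, a nuclear long noncoding RNA, stood at 295 against 597 CPM untreated, 122 against 197 at 24 h and 243 against 442 at 48 h. For Nupr1 and Neat1 the order held in every library, with log2 ratios of -1.24, -0.91 and -0.75 and of -1.01, -0.69 and -0.86. The mitochondrial share and the depth given above moved with this division of the cells, and their part in it was not tested.

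Across conditions, the comparison asked how the members of the treated libraries differed from those of the untreated library, and both treated libraries were set against the same untreated library. In members, 167 of 8490 genes (1.97%) were at least 2-fold higher and 514 (6.05%) at least 2-fold lower at 24 h, and 235 of 8639 (2.72%) and 431 (4.99%) at 48 h. With TMM scaling, which lets the bulk of genes set the level, 284 were higher and 259 lower at 24 h, and 301 and 301 at 48 h. Thinning every cell to 5000 UMIs before scoring gave 330 higher and 1337 lower at 24 h, and 809 lower at 48 h. In the other cells, 2.1% of genes were as much higher and 10.1% lower at 24 h, and 2.87% and 5.09% at 48 h. Of the 61 interferon genes measured at 24 h, 52 were at least 2-fold higher in members, and of 60 at 48 h likewise 52. A gene near 0 untreated reached the required mean of 10 CPM only through its treated level, and was then past 2-fold by that rule. These counts are therefore a description. As a log2 ratio, the list median was 4.04 at 24 h and 4.0 at 48 h in members and 3.81 at 24 h and 4.05 at 48 h in the other cells, beside -0.19 and -0.11 over all genes in members. Genes without a UMI in an arm were set at a floor of 3 counts over the arm, which makes the value a lower bound. That concerned 8 of the 68 interferon genes in untreated members, and 13 more had 1 to 3 UMIs there.

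**Figure D4:**
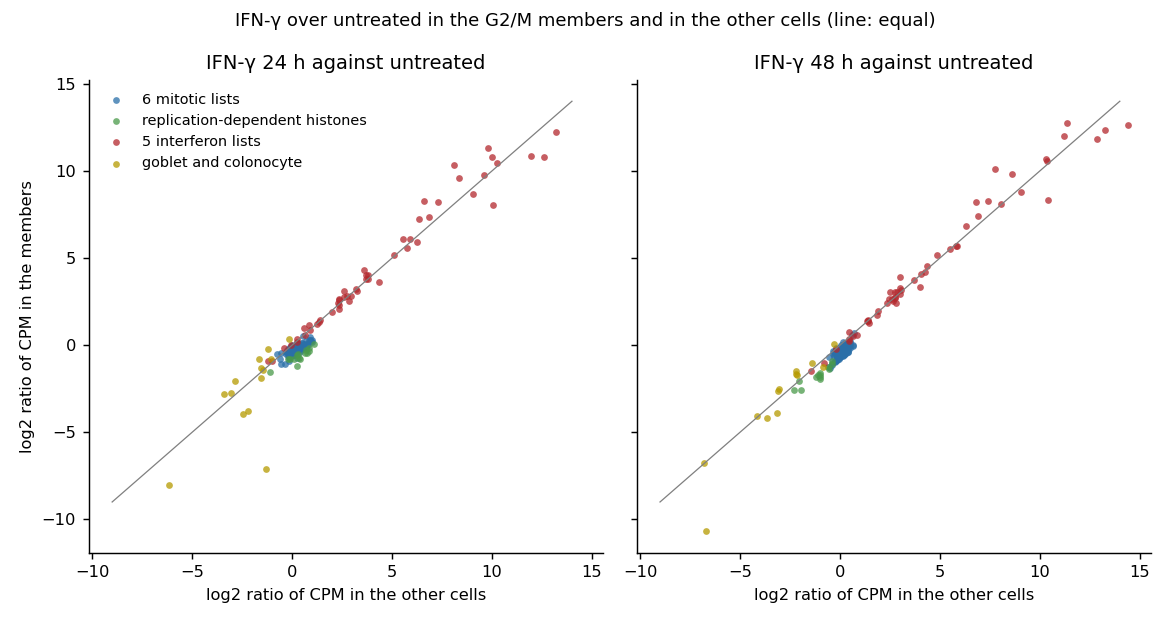
Log2 ratio of CPM, IFN-γ over untreated, in the other cells (horizontal) and in the members (vertical) at 24 h and 48 h, 1 point per gene of 4 groups of lists, without genes that had 0 UMIs in an arm; the line marks equal ratios. Interferon genes lie along the line up to log2 ratios above 10, with more scatter where untreated counts are few, and mitotic and histone genes lie mostly below it.

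The receptor and its early targets were measured in the members. Ifngr1, the binding subunit of the receptor, stood at 139 CPM untreated, 73.6 at 24 h and 68.7 at 48 h. Ifngr2, its signalling partner, stood at 67.3 CPM untreated, 35.5 at 24 h and 24.1 at 48 h. Irf1, an early target of the pathway, stood at 21.2 CPM untreated, 293 at 24 h and 279 at 48 h, with log2 ratios of 3.79 (3.60 to 3.98) at 24 h and 3.72 (3.53 to 3.91) at 48 h. Socs1, the feedback inhibitor, stood at 0.956 CPM untreated, 66.4 at 24 h and 34.2 at 48 h. Receptor transcripts were lower and the target and the inhibitor higher in the treated members. The other cells had Irf1 ratios of 3.82 at 24 h and 3.72 at 48 h and Ifngr1 ratios of -1.01 at 24 h and -0.81 at 48 h. Ciita, the master regulator of MHC class II, had 0 UMIs in untreated members and stood at 43.0 and 86.3 CPM in treated members. Nlrc5, its class I counterpart, stood at 0.261 CPM untreated, 42.9 at 24 h and 72.7 at 48 h.

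Antigen presentation genes were higher in treated members. Cd74, the invariant chain of MHC class II, stood at 0.608 CPM untreated, 1128 at 24 h and 2228 at 48 h in members and 0.313 CPM untreated, 1241 at 24 h and 2343 at 48 h in the other cells. Its log2 ratio in members was 10.86 (9.81 to 12.17) at 24 h and 11.84 (10.80 to 13.15) at 48 h, on 7 untreated UMIs in 7 cells. After thinning, 1.26% (0.153% to 4.47%) of untreated members held a Cd74 UMI, 94.9% (89.8% to 97.9%) at 24 h and 100% (99.2% to 100%) at 48 h, and the other cells of the treated libraries stood at 96.3% (94.7% to 97.5%) and 100% (99.8% to 100%). The unthinned shares of members were 4.40%, 100% and 100%. The small barcodes held 0.309, 905 and 1855 CPM of Cd74, and no cell type that should lack it was present to set the background. Nearly all members therefore held the transcript after treatment, with a part from free RNA that was not tested. All 6 class II genes were at least 2-fold higher at both times, beside 1.97% of all genes at 24 h and 2.72% at 48 h. Those near 0 untreated, such as Cd74, entered this count only through their treated level. H2-Ab1, a class II chain, stood at 0.0869 CPM untreated, 154 at 24 h and 562 at 48 h. Of class I genes, B2m, the light chain, stood at 64.8 CPM untreated, 467 at 24 h and 586 at 48 h. Tap1, which pumps peptides into the endoplasmic reticulum, stood at 4.61 CPM untreated, 166 at 24 h and 215 at 48 h. Psmb8, an immunoproteasome subunit, stood at 1.13 CPM untreated, 459 at 24 h and 503 at 48 h. Class I heavy chain genes resemble each other in sequence, and their counts could be split.

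The interferon-induced GTPases of the members went from 11.8 CPM in sum to 2842 at 24 h and 2874 at 48 h, and those of the other cells from 11.5 to 3067 and 3354. Iigp1, an immunity-related GTPase, had 0 UMIs in untreated members and 1093 and 999 CPM in treated members, which sets its log2 ratio at no less than 12.03 at 24 h and 11.90 at 48 h. Gbp2, a guanylate-binding protein, likewise had 0 untreated UMIs and stood at 507 and 586 CPM. Igtp stood at 0.261 CPM untreated, 366 at 24 h and 392 at 48 h. Of other effectors, Cxcl9 and Cxcl10, chemokines for T cells, stood at 0.0869 CPM untreated, 420.1 at 24 h and 462 at 48 h and at 0.435 CPM untreated, 555 at 24 h and 478 at 48 h in members. Ubd, a ubiquitin-like modifier, stood at 0.0869 CPM untreated, 222 at 24 h and 605 at 48 h, higher at 48 h than at 24 h. Cxcl9, Iigp1, Ubd, Gbp2, Cd74, H2-Eb1, H2-Ab1, Ido1, Igtp and Cxcl10 were the 10 named genes highest in treated members.

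Within each treated library the members lay slightly below the other cells. The median log2 ratio of members to others over the interferon lists was -0.18, -0.13 and -0.20, with 0 of 25, 63 and 64 genes past 2-fold among those with a mean of 10 CPM. Of all genes, 1.44%, 0.43% and 0.281% were as much higher and 1.2%, 0.307% and 0.399% as much lower. At such shares a count of 0 does not set the lists apart. Cxcl10 stood at 0.435 against 3.19 CPM untreated, 555 against 886 at 24 h and 478 against 696 at 48 h. Ido1, a tryptophan-degrading enzyme, stood at 0.0869 against 0 CPM untreated, 158 against 217 at 24 h and 149 against 250 at 48 h. Cd274, which encodes PD-L1, stood at 0.782 against 1.67 CPM untreated, 53.7 against 77.9 at 24 h and 89.8 against 132 at 48 h. In these 3 genes the members were lower in both treated libraries, with log2 ratios at 24 h and 48 h of -0.67 and -0.54 for Cxcl10, -0.46 and -0.74 for Ido1, and -0.54 and -0.55 for Cd274. Thinned shares of cells with a Cxcl10 UMI were 60.1% (51.5% to 68.4%) of members and 77.9% (74.8% to 80.8%) of others at 24 h, and 75.7% (71.4% to 79.6%) and 83.6% (82.0% to 85.0%) at 48 h. Unthinned, the shares were 94.9% and 95% at 24 h, and 94.5% and 93.5% at 48 h, at a greater depth in the members. The small barcodes held 2.85, 917 and 813 CPM of Cxcl10, and the part of free RNA in these shares was not tested.

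Cell by cell, no treated member overlapped the untreated members. The summed level of the 68 interferon genes ran from 724 to 4032 CPM in untreated members, with a median of 1864. This interferon level ran from 8121 to 26183 CPM at 24 h, with a median of 12776, and from 9905 to 27658 at 48 h, with a median of 16497. The other cells had medians of 2048, 14465 and 17748 CPM, and their highest cells reached 28229, 55369 and 60428. The highest cell of each library was among the others. Barcodes with fewer than 2000 UMIs held 2071, 13144 and 16230 CPM of the same genes, close to the cells of their own library, and the part of free RNA in the members' values was not tested.

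**Figure D5:**
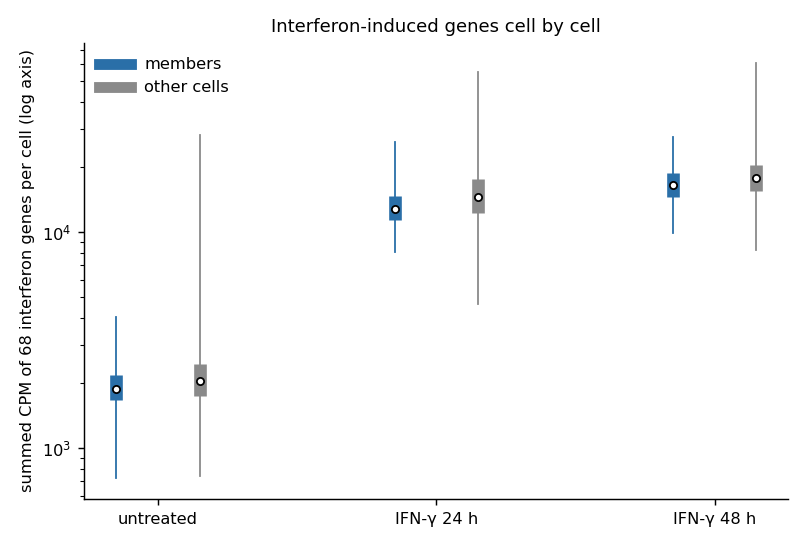
Summed CPM of 68 interferon genes per cell (log axis) in members (blue) and other cells (grey) of the 3 libraries; thin lines run from the lowest to the highest cell, thick bars from the 25th to the 75th percentile, and circles are medians. The lowest treated member, at 8121 CPM, lies above the highest untreated member, at 4032.

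The mitotic lists in the treated members lay near or below their untreated level. The median log2 ratio, IFN-γ over untreated, was -0.23 at 24 h and -0.43 at 48 h in members, beside -0.19 and -0.11 over all genes. With TMM scaling the all-gene medians became 0.10 and 0.05 and the mitotic medians 0.06 and -0.26, so the direction at 24 h turned with the scaling, and the value at 48 h lay below the all-gene median under both scalings. Of the 103 genes, 2 were at least 2-fold lower at 24 h and 5 at 48 h, beside 6.05% and 4.99% of all genes, and 0 were at least 2-fold higher, beside 1.97% and 2.72%. The shares of the list past 2-fold were thus no larger than those of all genes. Cdk1 stood at 208 CPM untreated, 182 at 24 h and 106 at 48 h in members, Aurkb, the kinase of the passenger complex, at 101 CPM untreated, 89.3 at 24 h and 46.4 at 48 h. Ckap2, a spindle protein, stood at 138 CPM untreated, 66.5 at 24 h and 55.0 at 48 h. Ckap2 was the list gene with the lowest value at 48 h, its log2 ratio being -1.05 (-1.17 to -0.93) at 24 h and -1.33 (-1.47 to -1.19) at 48 h. Mybl2 went the other way, at 35.8 CPM untreated, 51.6 at 24 h and 57.2 at 48 h. In the other cells the mitotic medians were 0.22 at 24 h and 0.09 at 48 h, so the gap between members and others was smaller in the treated libraries, with a median difference of responses of -0.47 at 24 h and -0.53 at 48 h. The members are a fixed 15% in each library, and their median score was 1.33 untreated, 1.34 at 24 h and 1.14 at 48 h. Mitotic genes follow that score, so their levels across conditions are not independent of the choice of members. How this choice acts on the levels and on the gap was not tested.

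Histone genes were lower in treated members. There the median log2 ratio was -0.58 at 24 h and -1.82 at 48 h, with 2 of 15 genes at least 2-fold lower at 24 h and 14 of 15 at 48 h, against 6.05% and 4.99% of all genes. With TMM scaling the medians were -0.29 and -1.61. The small barcodes held 4073 CPM of the list untreated, 4636 at 24 h and 2421 at 48 h, and the part of free RNA was not tested. Hist1h2ap stood at 239 CPM untreated, 142 at 24 h and 40.2 at 48 h, with -0.75 (-0.84 to -0.67) at 24 h and -2.57 (-2.72 to -2.42) at 48 h. Hist1h1e, a linker histone, stood at 546 CPM untreated, 367 at 24 h and 184 at 48 h. The other cells stood at 0.34 at 24 h and -1.01 at 48 h, higher at 24 h and lower at 48 h than untreated. The difference of responses, members less others, had a median of -1.02 at 24 h and -0.62 at 48 h, and 8 of 15 genes were at least 2-fold lower in it at 24 h, where 0.524% of all genes did so in that direction. S-phase genes did not share this pattern, with medians of 0.14 at 24 h and -0.07 at 48 h in members, and 0.43 and 0.09 with TMM scaling, which turns the direction at 48 h. At 48 h Cdkn1b stood at a log2 ratio of -1.33 and Cdkn2d at -1.15 in members, while Ccnd1, cyclin D1, stood at 248 CPM untreated, 412 at 24 h and 376 at 48 h.

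Several genes of the stem cell list were lower in the treated members. Lgr5 stood at 142 CPM untreated, 53.5 at 24 h and 85.0 at 48 h. Smoc2, another stem cell marker, stood at 66.3 CPM untreated, 24.7 at 24 h and 39.2 at 48 h. Lrig1, a receptor inhibitor of the stem zone, stood at 251 CPM untreated, 94.4 at 24 h and 135 at 48 h. The stem list had medians of -0.66 at 24 h and -0.20 at 48 h, with 12 of 13 genes lower at 24 h and 11 of 13 at 48 h, and 4 at least 2-fold lower at 24 h and 0 at 48 h, beside 6.05% and 4.99% of all genes. Cdca7, a target of Myc, was the 1 gene higher at 24 h, at 92.2 CPM untreated, 99.2 at 24 h and 81.9 at 48 h. Znrf3, a Wnt inhibitor, at 102 CPM untreated, 77.8 at 24 h and 150.4 at 48 h, and Ephb3, a crypt ephrin receptor, at 29.7 CPM untreated, 26.8 at 24 h and 34.0 at 48 h, were the genes higher at 48 h. Ascl2 stood at 48.0 CPM untreated, 47.7 at 24 h and 41.6 at 48 h, close to its untreated level at 24 h. With TMM scaling these medians were -0.37 and -0.04, so at 48 h the list lay close to its untreated level. The 10 named genes lowest in treated members were Cyp2c55, Lyz1, Reg4, Muc2, Spink4, Cftr, Car1, Cdh13, Hes1 and Gsta4. Cftr, a chloride channel, stood at 135 CPM untreated, 17.6 at 24 h and 12.9 at 48 h, with log2 ratios of -2.94 (-3.14 to -2.74) at 24 h and -3.39 (-3.66 to -3.14) at 48 h. Hes1, the Notch target that holds off secretory fate, stood at 145 CPM untreated, 32.4 at 24 h and 26.7 at 48 h. Cdh13, a cadherin without a cytoplasmic tail, stood at 179.7 CPM untreated, 25 at 24 h and 30.6 at 48 h. Gsta4, a glutathione transferase, stood at 169 CPM untreated, 52.8 at 24 h and 19.3 at 48 h. For Lyz1, Reg4, Muc2 and Spink4 the untreated level rested on the cell named above. Without the 3 highest cells of each library, Muc2 stood at 44.2, 5.25 and 7.41 CPM and Spink4 at 52.5, 5.41 and 10.7, still lower with treatment, while Lyz1 and Reg4 stood below 10 CPM in every library. The regenerative and YAP list had medians of -0.15 at 24 h and -0.24 at 48 h over 8 genes, and of 0.14 and, over 7 genes, 0.04 with TMM scaling, so its direction turned with the scaling. Of these 8 genes, 2 were at least 2-fold higher at both times, Ly6a and Areg, beside 1.97% and 2.72% of all genes. At each time 1 was at least 2-fold lower, beside 6.05% and 4.99% of all genes. That gene was Ccn1, a matrix protein and YAP target, at 24 h and Msln, which encodes mesothelin, at 48 h. Ly6a, a surface protein of regenerating epithelium that interferon also induces, stood at 917 CPM untreated, 3386 at 24 h and 3982 at 48 h. Areg, an EGF receptor ligand, stood at 57.8 CPM untreated, 255 at 24 h and 257 at 48 h.

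The response of the members was set against that of the other cells gene by gene. The log2 ratio of members less that of the others was at least 1 in 25 and at most -1 in 45 of 8581 genes at 24 h (0.291% and 0.524%), and in 18 and 19 of 8763 at 48 h (0.205% and 0.217%). These counts moved with the processing, for a cause that was not tested. They were 208 and 468 at 24 h and 160 and 142 at 48 h after thinning to 5000 UMIs, with 12 of the 25, 21 of the 45, 5 of the 18 and 8 of the 19 genes shared, 63 and 24 at 24 h in the top 10% by score, and 91 at most -1 at 24 h with the mean of CPM over cells. The median difference over the interferon lists was 0.10 at 24 h and 0.04 at 48 h, over 53 genes with a UMI in all arms. The 5 named genes with the highest difference were Cxcl10, Ubd, Gbp7, Edn1 and H2-Eb1, and the 5 with the lowest were Gbp6, Cyp2c55, H2-Ab1, Cd74 and Hist1h2ae. Cxcl10 differed by 2.20 (0.91 to 3.49) at 24 h and 2.33 (1.04 to 3.62) at 48 h, on 5 untreated UMIs in members and 122 in the others. Ubd differed by 1.52 (-1.44 to 4.47) at 24 h and 1.41 (-1.54 to 4.36) at 48 h, on 1 and 11 untreated UMIs, and Cd74 by -1.09 (-2.44 to 0.25) at 24 h and -1.03 (-2.37 to 0.32) at 48 h, on 7 and 12. The intervals of Ubd, Gbp7, H2-Eb1, Gbp6, H2-Ab1 and Cd74 held 0 at both times, so a difference in their response was not detectable at this depth. Edn1, which was lower with IFN-γ in both arms and by less in members, differed by 0.85 (0.53 to 1.16) at 24 h and 0.88 (0.63 to 1.12) at 48 h. Cyp2c55, also lower in both arms but by more in members, differed by -1.87 (-2.88 to -0.85) at 24 h and -4.01 (-6.84 to -1.17) at 48 h, on few treated UMIs. Hist1h2ae, a core histone, differed by -1.23 (-1.34 to -1.12) at 24 h and -0.93 (-1.09 to -0.76) at 48 h. The intervals of these 3 did not hold 0. With 1 library per condition these intervals say nothing of the spread between cultures.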

How the data were processed

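Single-cell libraries of mouse colon organoids were made from polyA RNA with a droplet 3′ kit. Each library's UMI counts, by gene and barcode, were deposited as the authors made them with Cell Ranger 6.0.1 on mm10 per the labels. The gene annotation release is not given in the sources used here. Barcodes that passed 5000 UMIs, 400 genes and at most 15% mitochondrial UMIs held 49801935 counts untreated, 71077817 at 24 h and 47243500 at 48 h. The members' share of these was 11506556, 13262829 and 10473226 counts, and the precision of a level follows from its own count.

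Counts were summed over the members and over the other cells of each library and divided by their total, giving CPM. A gene entered a comparison if its 2 arms averaged 10 CPM or more, and genes at least 2-fold apart were counted. Log2 ratios carry exact conditional binomial 95% intervals, shares carry Clopper-Pearson intervals, and differences of responses carry normal intervals from the counts. A gene with 0 UMIs in an arm was set at 3 counts over the arm. Cells were thinned to 5000 UMIs for shares, which left out no cell. No test between conditions was possible, as each had 1 library, and no doublet caller was run. The log2 ratios and their intervals were tested on simulated pooled counts without spread between cells, and the other steps were not simulated.

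The members and the gene lists were chosen with earlier results of these data known. Genes were named from the lists, and by the 10 highest and 10 lowest values of the smallest change over the 3 libraries (members against others) or over both times (IFN-γ in members), and the 5 highest and 5 lowest differences of responses, all among nuclear genes that averaged 50 CPM or more. Alternatives changed the depth, the share of cells taken, the cell filters, the summing, the scaling (TMM, edgeR 4.0.16) and the low-value filter. Promoter windows came from RefSeq on GRCm38.p6. Python 3.11.15 with numpy 2.4.6, scipy 1.17.1 and pandas 2.3.3 and R 4.3.3 were used.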

Additional observations from a re-analysis of the deposited data

Results flagged for a closer look

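Barcodes with fewer than 2000 UMIs, which none of the comparisons used, carried the 68 interferon genes at 13144 CPM in the 24 h library and 16230 CPM in the 48 h library, above the 2071 CPM of such barcodes in the untreated library. The members of the same libraries held 13596, 16887 and 1940 CPM in that order. Whether these barcodes were empty droplets was not tested, nor was the part of free RNA in the values of the members.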

How the results depend on the processing

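The direction of the list medians held under all settings for the mitotic lists in members against others (1.11 to 1.35 untreated, 0.63 to 0.83 at 24 h, 0.62 to 0.80 at 48 h), for the interferon lists in members (3.30 to 4.31 at 24 h, 3.69 to 4.17 at 48 h) and for histones in members at 48 h (-1.83 to -1.41), while the mitotic median in members at 24 h turned to 0.06 with TMM scaling. Counts of genes past 2-fold moved more. Thinning to 5000 UMIs before scoring gave 269 lower in untreated members, 71 higher and 257 lower in members at 24 h, 330 higher and 1337 lower with IFN-γ at 24 h, 809 lower at 48 h, and differences of responses of 208 higher and 468 lower at 24 h and 160 and 142 at 48 h. The top 10% by score gave differences of 63 and 24 at 24 h and 42 higher at 48 h. The mean of CPM over cells gave 165 lower in untreated members, 97 lower at 24 h, and differences of 91 lower at 24 h and of 35 and 29 at 48 h. TMM scaling gave 20 lower in members at 48 h, and 284 higher and 259 lower with IFN-γ at 24 h. Without a CPM minimum, which admitted more genes of few counts, members differed in 351 higher and 1573 lower untreated, 180 and 1206 at 24 h and 161 and 1224 at 48 h, IFN-γ in 482 and 2475 at 24 h and 727 and 1971 at 48 h, and the responses in 691 and 691 at 24 h and 605 and 732 at 48 h. Cells within the 10th to 90th percentile of the members' UMIs, a setting chosen after seeing the data, gave 53 higher in members at 24 h and differences of 40 lower at 48 h. Apart from the added genes without a minimum, the cause of these shifts was not tested.
Of the named genes, 18 values turned. Lyz1 in untreated members against others stood at 1.02 on the log2 scale, and at -2.38 after thinning, -4.41 in the top 10%, -2.15 without the 5% of cells with most UMIs and -2.16 in the matched cells. Reg4 turned in the difference at 48 h to 3.51, 6.30, 1.22 and 1.21 under these 4 settings, and in the top 10% to 5.35 in the difference and 0.10 with IFN-γ at 24 h. The difference at 24 h turned for Spink4 to 0.38 after thinning and 1.81 in the top 10%, where it also turned for Lyz1 to 1.39 and for Muc2 to 1.5. Cd74 turned to 0.0089 at 48 h in the top 10%. In the top 20%, Ubd turned to -0.056 and -0.018 in the difference, and Chgb to 0.13 with IFN-γ at 48 h. Of 173 list medians, 52 lay on both sides of 0 over the settings, 0 of them past 2-fold as reported, among them S-phase genes with IFN-γ in members at 48 h (-0.11 to 0.09) and, in members against others, histones at 48 h (-0.12 to 0.18) and stem cell genes untreated (-0.09 to 0.12). The lineage medians of members against others kept their sign but ranged widely, from -2.76 to -0.27 untreated and -0.83 to -0.35 at 48 h for goblet genes, from -4.82 to -0.23 untreated and -5.91 to -2.0 at 48 h for enteroendocrine genes, and from -2.36 to -1.32 untreated and -1.25 to -0.42 at 24 h for colonocyte genes. No paired analysis was possible because each condition has 1 library, and for the same reason no replicate could be left out. Depth limits the values of genes with few untreated UMIs.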
